A study of Mus musculus with 8 samples.

Results

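Stretches of the mouse genome that carry genes for microRNAs of the nervous system were described in the H3K4me3 peak lists of embryonic brain. These 4 loci were the loci of Mir9-1, Mir9-2, Mir9-3 and Mir124a-2. Members were all peaks that overlapped 1 of 4 fixed windows on build mm9 by at least 1 bp: chromosome 3 from 88005000 to 88024000 for Mir9-1, chromosome 13 from 83850000 to 83885000 for Mir9-2, chromosome 7 from 86640000 to 86660000 for Mir9-3 and chromosome 3 from 17685000 to 17700000 for Mir124a-2. There were 88 such peaks of the 74232 in the 4 lists together, and they merged into 20 of the 19714 union regions of the series. The loci were selected on the measured widths of the peaks there, which are among the broadest of these lists, so the widths themselves are given as a description. The windows use no difference between genotypes, which is what the tests below address. The wild type (WT) group comprised 2 H3K4me3 libraries from brains of mixed strain background at embryonic stage E12.5, without Cre. The double knockout (dKO) group comprised 2 libraries of the same stage and background in which Lats1 and Lats2 were deleted with Nestin-Cre. Only the dKO animals carried Cre, so an effect of Cre and the loss of Lats1 and Lats2 cannot be told apart. The series title sets the comparison within the question of how Hippo signalling holds back YAP/TAZ, transcription and the number of neural progenitors. Another 4 libraries, of input chromatin, were not analysed here. Whole brains were used, and Nestin-Cre is active in neural progenitors and their descendants, so other cells of the brain keep both genes. In such bulk chromatin, fewer cells with the mark and less of the mark per cell cannot be told apart.

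MicroRNAs are short RNAs that guide Argonaute proteins to messenger RNAs, which are then translated less or degraded, and bases 2 to 8 of the microRNA, the seed, do most of the pairing. miR-9 is abundant in neural progenitors and young neurons and acts on the balance between division and differentiation, while miR-124 builds up in neurons and represses non-neuronal transcripts. Both are cut from longer host transcripts, and H3K4me3, trimethylated lysine 4 of histone H3, marks the start regions of genes that are active or poised. Broad domains of this mark are often found at genes that define a cell's identity.

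The 3 Mir9 loci give the same product, which is why their sequences are shown together. RefSeq entries (GRCm38.p6) were matched for 3 of the 4 loci. The mature miR-9-5p has 23 bases and the mature miR-9-3p has 22. Each had 1 distinct sequence over the 3 loci, so a mature read would not tell which locus it came from. Capitals mark the seed, 5′ to 3′.
miR-9-5p: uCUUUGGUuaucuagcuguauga
miR-9-3p: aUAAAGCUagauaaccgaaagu
Of the 1679 mature microRNA names in the RefSeq table, 0 others had the seed of miR-9-5p and 0 others that of miR-9-3p. The hairpins differ outside the mature arms, which are set in capitals here. They lie on the plus strand of GRCm38.p6 at chr3:88215598-88215686, chr13:83738814-83738885 and chr7:79505264-79505353, a build on which the mm9 peak positions cannot be read.
Mir9-1: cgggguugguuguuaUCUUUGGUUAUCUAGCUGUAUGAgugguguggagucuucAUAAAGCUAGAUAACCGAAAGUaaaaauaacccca
Mir9-2: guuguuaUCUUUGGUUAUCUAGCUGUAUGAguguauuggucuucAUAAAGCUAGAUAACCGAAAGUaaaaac
Mir9-3: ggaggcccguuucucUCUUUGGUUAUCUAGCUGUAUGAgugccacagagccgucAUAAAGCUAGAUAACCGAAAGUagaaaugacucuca
With gaps counted as differences, the hairpins of Mir9-1 (89 bases) and Mir9-2 (72 bases) had 70 identical bases in 89 alignment columns (78.7%). Mir9-1 and Mir9-3 (90 bases) had 71 in 90 (78.9%), and Mir9-2 and Mir9-3 had 64 in 90 (71.1%). The Mir9-2 entry is the shortest, so these shares depend on entry length as well as on base differences and do not rank the hairpins by similarity.

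In the RefSeq table, each of the 4 hairpins lay inside a long noncoding RNA gene. These hosts were Gm3764 for Mir9-1, C130071C03Rik for Mir9-2, Mir9-3hg for Mir9-3 and Mir124-2hg for Mir124a-2. Promoter sequences were matched for 3 hosts. They are shown because the mark under study sits at gene starts and CpG dinucleotides are where its methyltransferases are recruited; CG, which reads the same on both strands, is in capitals. Each runs from 250 bases before to 50 bases after a start site on the plus strand of GRCm38.p6, at chr3:88214232-88214531 for Gm3764, chr13:83721131-83721430 for the most upstream of 3 listed starts of C130071C03Rik, and chr7:79499776-79500075 for the upstream of 2 listed starts of Mir9-3hg.
Gm3764: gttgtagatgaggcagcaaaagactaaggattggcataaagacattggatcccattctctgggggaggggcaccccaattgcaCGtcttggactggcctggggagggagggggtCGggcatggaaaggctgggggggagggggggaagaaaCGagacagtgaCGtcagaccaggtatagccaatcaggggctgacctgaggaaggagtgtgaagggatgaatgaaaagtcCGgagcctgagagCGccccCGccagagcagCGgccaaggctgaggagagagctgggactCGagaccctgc
C130071C03Rik: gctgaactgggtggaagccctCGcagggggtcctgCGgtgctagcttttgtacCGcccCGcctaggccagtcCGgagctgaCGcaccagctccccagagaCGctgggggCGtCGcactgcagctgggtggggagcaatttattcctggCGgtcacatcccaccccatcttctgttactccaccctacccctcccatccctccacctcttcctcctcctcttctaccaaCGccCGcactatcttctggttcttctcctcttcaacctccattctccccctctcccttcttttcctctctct
Mir9-3hg: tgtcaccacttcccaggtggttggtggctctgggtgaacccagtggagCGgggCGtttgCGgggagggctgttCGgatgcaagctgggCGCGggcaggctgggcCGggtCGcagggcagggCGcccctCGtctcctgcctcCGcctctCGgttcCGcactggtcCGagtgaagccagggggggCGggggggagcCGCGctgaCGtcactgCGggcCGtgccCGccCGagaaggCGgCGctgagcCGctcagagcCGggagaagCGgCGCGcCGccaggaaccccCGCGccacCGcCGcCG
The Mir9-3hg start held 35 CG in 300 bases, a count reached by 6.95% of the 32851 promoters of the table. The printed starts of C130071C03Rik and Gm3764 held 12 and 9, counts reached by 39.6% and 45.8% of promoters, and the median promoter held 7. The listed starts not printed held 4 and 7 CG for C130071C03Rik and 28 for Mir9-3hg. The distance from the printed start sites to the hairpin was 5238 bp for Mir9-3hg, 17433 bp for C130071C03Rik and 1116 bp for Gm3764. Positions of hairpins and starts within the mm9 peaks were not analysed here.

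The number of peaks was 19486 and 19331 for the WT replicates and 18048 and 17367 for the dKO replicates, covering 20.3, 21.4, 19.3 and 17.3 Mb. Read depth is unknown, and the deposited peak score, whose scale the labels do not name, had its lowest median in dKO replicate 2 (230, against 312 to 338.5 in the other lists). Over the 14943 regions with a peak in every library, the median log2 difference in width between dKO and WT was -0.12 before and 0.02 after each library was centred on its own median. The widths below are uncentred base pairs unless stated. The tissue label and the genotypes were not checked against marker genes or Lats1 and Lats2, since no mm9 annotation was used here.

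**Figure D1:**
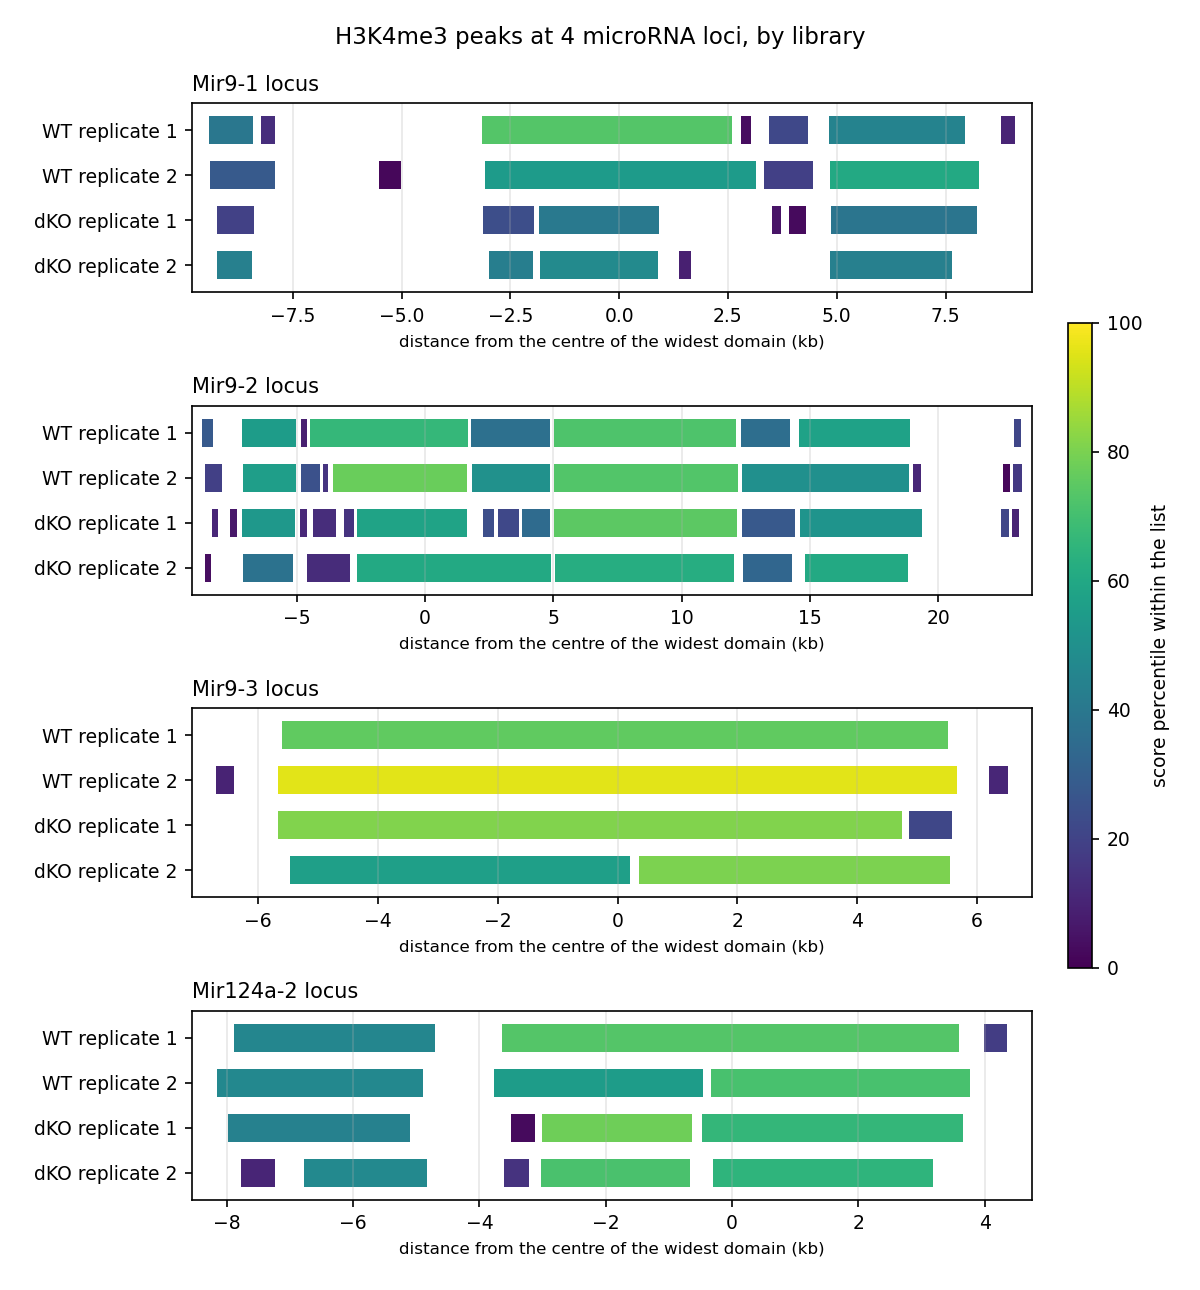
H3K4me3 peaks at the 4 loci, with distance from the centre of the widest domain of each locus in kb on the horizontal axis and the 4 libraries in rows; colour gives the score percentile of each peak within its own list. At Mir9-1 the long central peak of both WT libraries (5734 and 6233 bp) ends further right than the marked stretch of either dKO library, while at Mir9-3 the outer edges of the domain lie within 197 bp of each other in all rows.

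At Mir9-1 the mark covered less sequence in both dKO libraries. The peaks of the locus covered 11610 and 12790 bp in WT replicates 1 and 2, and 8744 and 7589 bp in dKO replicates 1 and 2. The mean of 8166.5 ± 817 bp in dKO was below the WT mean of 12200 ± 834 bp (SD, n = 2 each), a difference of -33.1%, and the groups did not overlap. The exact two-sided permutation test gave p = 0.3333, the smallest value that 2 libraries against 2 allow. In pieces, the WT libraries had 7 and 5 and the dKO libraries 6 and 5, so the number of peaks did not separate the genotypes. The library of dKO replicate 2, which had the fewest peaks and the lowest median score of the series, was also the lowest here, and without it the difference was -3456 bp.

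Of this difference of -4033.5 bp, the central domain held the largest part, with 5945 and 6233 bp in WT against 3936 and 3993 bp in dKO, and part of its right side was marked in WT only. In WT replicate 1 the central peak ran without a break from 88010425 to 88016158 (5734 bp), and in WT replicate 2 from 88010494 to 88016726 (6233 bp). In dKO replicate 1 the same stretch held peaks of 1164 and 2772 bp, and the marked part ended at 88014495. In dKO replicate 2 it held peaks of 1008 and 2708 bp, ending at 88014462, and a separate short peak of 277 bp from 88014950 to 88015226. The left edges of the central domain were within 171 bp of each other over the 4 libraries, while the right edges spread over 2231 bp. Base by base, 932 bp from 88015227 to 88016158 and 454 bp from 88014496 to 88014949 were marked in each WT library but not in a dKO library. Over the whole genome there were 12535 such WT-only stretches with a median of 45 bp, and the 932 bp stretch was the third longest. A stretch of this kind of at least 500 bp, a limit chosen after the values were seen, was held by 37 of the 14943 shared regions (0.248%) and by 1 of the 11 shared regions of the 4 loci. Most shared regions are much narrower than this domain. Of the 73 shared regions outside the loci with a mean width of at least 4000 bp, 1 (1.37%) held such a stretch. The reverse kind, marked in both dKO and neither WT library, was held by 0.0268% of shared regions, by 1.37% of those 73 and by 0 of the 11.

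The flanks of the Mir9-1 locus did not all follow the central domain. To its right, the domain from 88018398 to 88021848 covered 3132 and 3432 bp in WT against 3362 and 2801 bp in dKO, with overlapping groups. Between these domains, a region from 88016896 to 88018035 held 902 and 1140 bp in WT, 593 bp in 2 pieces in dKO replicate 1 and no peak in dKO replicate 2. At the left border of the window, the region from 88004161 to 88005658 held 1323 and 1494 bp in WT against 853 and 795 bp in dKO, so the groups did not overlap there. When peaks of a list within 1000 bp of each other were joined, the central domain and its right flank became a single domain in WT, of 12239 and 11355 bp, which stood at places 5 and 9 by width in these lists. In dKO they stayed apart. The longest joined domain of the locus was then 4726 bp in dKO replicate 1, where it was the right flank with the peaks before it, and 4631 bp in dKO replicate 2, where it was the central domain.

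At Mir9-2 the mark formed the longest array of the 4 loci, and it was close to the same length in both genotypes. The 42 member peaks covered 25585 and 26597 bp in WT against 25185 and 24359 bp in dKO. The dKO mean of 24772 ± 584 bp stood beside 26091 ± 716 bp in WT (SD, n = 2 each), a difference of -5.06%. These groups did not overlap either, but dKO replicate 1 and WT replicate 1 were closer to each other than to their own partners (exact permutation p = 0.3333). The nearest peaks outside were at least 189053 bp away on the left and 475987 bp on the right in every library. With peaks within 1000 bp joined, the locus held the widest domain of every list, of 26040 and 27912 bp in WT against 27697 and 25912 bp in dKO. Here dKO replicate 1 was above WT replicate 1.

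The Mir9-2 array had breaks common to all libraries. Between its first and last peak, 7 gaps were free of peaks in all 4 libraries. The shared gap from 83856887 to 83857029 measured 143 bp. Those from 83866810 to 83866945 (136 bp) and from 83874132 to 83874249 (118 bp) bounded a central domain that was a single peak in each library, of 7100, 7179, 7110 and 7007 bp, with left edges within 19 bp of each other. The domain to its left, from 83857030 to 83866809, covered 9456 and 9262 bp in WT against 8145 and 9235 bp in dKO, but in 3, 4, 7 and 2 pieces. Thus dKO replicate 1 had the most pieces and dKO replicate 2 the fewest. A break began at 83863545 in WT replicate 2 and dKO replicate 1 and at 83863580 in WT replicate 1, while dKO replicate 2 had an unbroken peak of 7566 bp there, the widest single peak of its list. The domain to the right, from 83874250 to 83881309, covered 6202 and 6813 bp in WT against 6848 and 5922 bp in dKO, without an order by genotype. A small outlying region from 83853230 to 83853985 held 405 and 659 bp in WT against 226 and 246 bp in dKO.

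At Mir9-3 nearly all of the mark sat in a single domain from 86643765 to 86655114. It was 1 unbroken peak of 11119 bp in WT replicate 1 and of 11350 bp in WT replicate 2, the widest peak of each list. In dKO replicate 1 it was a peak of 10415 bp, again the widest of its list, followed after 129 bp by a peak of 706 bp. In dKO replicate 2 it was split by a gap of 151 bp into peaks of 5678 and 5202 bp. Base pairs under peaks in this domain were 11119 and 11350 in WT against 11121 and 10880 in dKO, so the groups overlapped, and the outer edges agreed within 197 bp on the left and 155 bp on the right. With 2 small flanking peaks of WT replicate 2 (301 and 317 bp) the locus mean was 11543.5 ± 600 bp for WT, beside 11000.5 ± 170 bp for dKO (SD, n = 2 each; exact permutation p = 0.6667). The 2 dKO libraries had 2 pieces each where the 2 WT libraries had 1, with breaks at different places.

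At Mir124a-2 the mark formed 2 neighbouring domains, both shorter in dKO before centring. The locus totals were 10793 and 10671 bp in WT against 9775 and 8744 bp in dKO. The dKO mean of 9259.5 ± 729 bp was below the WT mean of 10732 ± 86.3 bp (SD, n = 2 each), a difference of -13.7% without overlap (exact permutation p = 0.3333). Without dKO replicate 2 the difference was -957 bp, and without dKO replicate 1 it was -1988 bp. The larger domain, from 17689125 to 17696666, covered 7238 and 7410 bp in WT against 6903 and 6257 bp in dKO. It was 1 peak in WT replicate 1, 2 in WT replicate 2 and 3 in each dKO library. A short leading piece of 371 bp in dKO replicate 1 and 410 bp in dKO replicate 2 stood apart from the next piece, with breaks at nearly the same place. In WT replicate 2 and in both dKO libraries a further break fell near the middle of the domain, where a piece ended at 17692438 in WT replicate 2, at 17692269 in dKO replicate 1 and at 17692225 in dKO replicate 2. The smaller domain, from 17684744 to 17688195, covered 3188 and 3261 bp in WT against 2872 and 2487 bp in dKO. This was an isolated locus, with the nearest peaks at least 1600211 bp to the left and 257191 bp to the right.

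**Figure D2:**
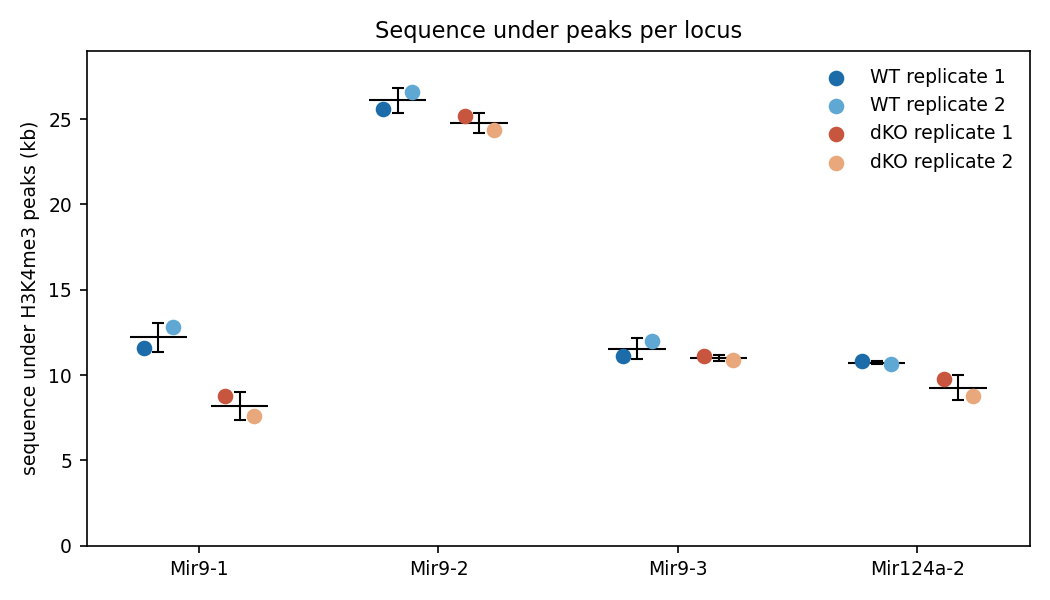
Sequence under H3K4me3 peaks in kb for each locus; points are libraries, horizontal lines are means and bars the SD of 2 libraries. The gap between genotypes is widest at Mir9-1 (12200 bp in WT, 8166.5 bp in dKO).

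Compared within libraries, Mir9-1 stood lower in dKO beside the other loci. The ratio of its base pairs to the sum of the other 3 loci, which sets aside a scaling common to all 4 loci, was 0.244 and 0.260 in WT against 0.190 and 0.173 in dKO (exact permutation p = 0.3333). The same ratio was 0.223 and 0.208 in WT against 0.217 and 0.204 in dKO for Mir124a-2, where the groups overlapped (exact permutation p = 0.6667). For Mir9-2 it was 0.763 and 0.751 in WT against 0.850 and 0.895 in dKO, and for Mir9-3 0.232 and 0.239 against 0.254 and 0.267. The ratios of Mir124a-2, Mir9-2 and Mir9-3 all contain Mir9-1 in their denominators. They therefore also depend on its lower base pairs in dKO, and so does the overlap at Mir124a-2. In order of mean base pairs in WT the loci ran Mir9-2, Mir9-1, Mir9-3 and Mir124a-2, and in dKO Mir9-2, Mir9-3, Mir124a-2 and Mir9-1. The WT libraries of Mir9-1 (11610 to 12790 bp) and of Mir9-3 (11119 to 11968 bp) overlapped in range. By library, Mir9-1 was above Mir9-3 in WT replicate 1 (11610 against 11119 bp) and WT replicate 2 (12790 against 11968 bp). Mir124a-2 was above Mir9-1 in dKO replicate 1 (9775 against 8744 bp) and dKO replicate 2 (8744 against 7589 bp).

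**Figure D3:**
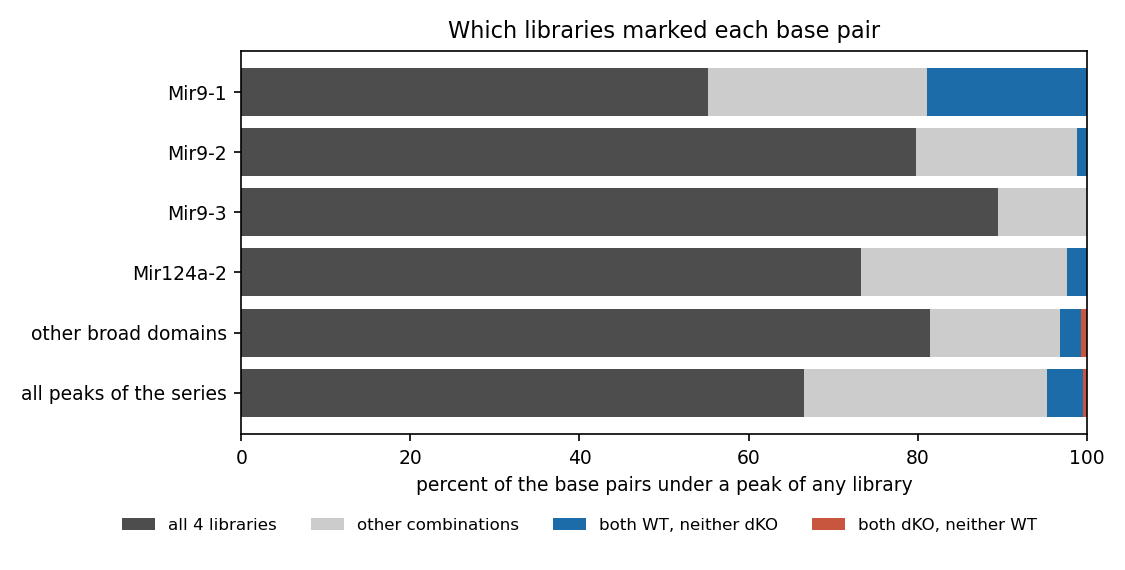
Share of the base pairs under a peak of any library, split by which libraries marked them, for each locus, for 73 other broad domains and for all peaks of the series. The part marked in both WT and neither dKO library is 18.9% at Mir9-1 and 0% at Mir9-3.

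Of the base pairs marked in any library at Mir9-1, 55.2% were marked in all 4 and 18.9% in both WT libraries only. At Mir9-2, Mir9-3 and Mir124a-2 the share marked in all 4 was 79.8%, 89.6% and 73.3%, and the share marked in both WT only was 1.13%, 0% and 2.38%. Over all peaks of the series these shares were 66.6% and 4.24%, and over the 73 other shared regions of at least 4000 bp mean width they were 81.5% and 2.50%. No base pair of the 4 loci was marked in both dKO and neither WT library, against 0.429% over the series.

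No shared region of the loci passed the threshold of the width fit. Of the 20 union regions, 11 had a peak in every library and could enter the fit, which ran over all 14943 shared regions. Another 5 had a peak in a single WT library only, 1 in a single dKO library only, and the remaining 3 in both genotypes. The share of such regions over the series was not computed here, so these counts are not read as a difference between genotypes. At a Benjamini-Hochberg adjusted p under 0.05 (limma on centred log2 widths), 0 of the 11 were wider and 0 narrower, where 0.00669% and 0% of all regions were. At an unadjusted p under 0.05, 0 of the 11 were wider and 3 narrower, where 2.82% and 4.85% of all regions were. The median centred log2 difference was 0.03 over the 11 and 0.02 over all regions.

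The central Mir9-1 domain had a centred log2 width difference of -0.48 (SE 0.08, limma adjusted p = 0.28) between dKO and WT. This stood at place 43 of 14943 by p. By size it stood at percentile 5.09 of all shared regions, counted from the most negative difference, which was -1.94. The difference lay below those of all 73 other broad domains, which ran from -0.40 to 0.49 with a median of 0.06. The left border region of Mir9-1 had -0.63 (SE 0.12, limma adjusted p = 0.321), and the outlying region of Mir9-2 had -0.99 (SE 0.31, limma adjusted p = 0.568). The right flank of Mir9-1 had 0.05 (SE 0.08). The widest domains of the other loci had 0.03 (SE 0.12) at Mir9-2, 0.11 (SE 0.08) at Mir9-3 and -0.01 (SE 0.07) at Mir124a-2, with limma adjusted p of 0.953, 0.774 and 0.967. Without centring these 3 values were -0.11, -0.03 and -0.16, so the signs at Mir9-2 and Mir9-3 rest on the scaling, while the central Mir9-1 domain had -0.62.

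**Figure D4:**
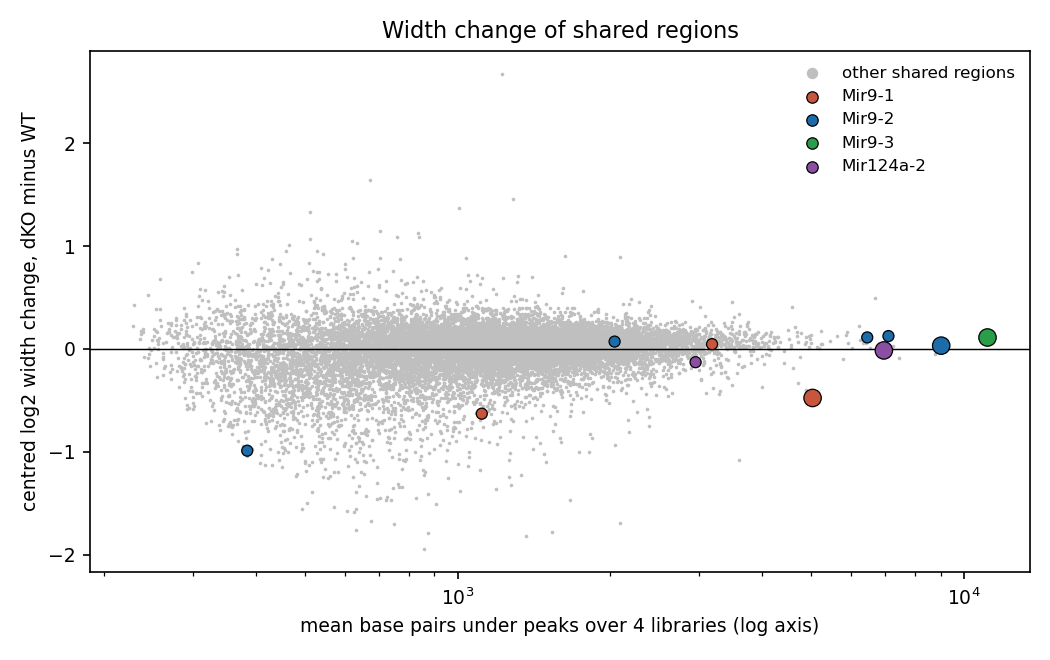
Centred log2 width difference between dKO and WT against mean base pairs under peaks (log axis) for the 14943 shared regions; large coloured points are the widest domain of each locus and small ones its other regions. The central Mir9-1 domain lies at -0.48, and those of Mir9-2, Mir9-3 and Mir124a-2 lie from -0.01 to 0.11.

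Non-overlap of the genotypes was common in uncentred widths. Base pairs were lower in both dKO libraries than in both WT libraries in 7 of the 11 regions, where 39.1% of all regions were, and higher in 0, where 4.17% were. After centring, 4 of the 11 were lower and 3 higher, where 16.3% and 23.7% of all regions were. Of the widest domains, only that of Mir9-1 was lower and only that of Mir9-3 higher after centring. Among the 73 other broad domains, 12.3% were lower and 43.8% higher by this measure. More pieces in both dKO libraries than in both WT libraries were found in 2 of the 11 regions, the widest domains of Mir9-3 and Mir124a-2, where 1.4% of all regions and 11% of the other broad domains had them. Fewer pieces were found in 0 of the 11, where 0.542% of all regions had them. Shared regions outside the loci were mostly single peaks (88.6% to 94.2% by library), while 34.2% to 65.8% of the other broad domains were.

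Of the 4 loci, only Mir9-1 had a score percentile of the best peak, its place within its own list, that was lower in both dKO libraries. By widest domain this held for 2 of the 4 loci, Mir9-1 and Mir9-2. It held for 30.4% of all shared regions and 20.5% of the 73 other broad domains. The highest-scoring peak of Mir9-1 stood at percentiles 73.2 and 60.2 in WT against 40.6 and 47.3 in dKO. It was the right flank in WT replicate 2 and a peak of the central domain in the other libraries. Both dKO values were in the lower part of their lists. Averaged over all pieces by width, the percentile of Mir9-1 was 54.1 and 47.7 in WT against 33.1 and 43.2 in dKO, and the difference of -22.8 points for the best peak became -12.8. By that average the groups of Mir9-2 did not overlap either, at 58.0 and 58.8 in WT against 51.3 and 53.0 in dKO. The best peak of Mir9-3 stood at 75.4 and 95.5 in WT and at 81.1 and 80.2 in dKO, with the WT libraries on either side of the dKO libraries. For the best peak of Mir9-2 the values were 72.0 and 77.3 in WT against 74.9 and 62.5 in dKO, and for Mir124a-2 they were 73.2 and 71.0 in WT against 77.9 and 71.3 in dKO, both with overlap. By region, the percentile was lower in both dKO libraries in 5 of the 11 shared regions and higher in 0, where 30.4% and 9.44% of all shared regions were. Of these 5 regions, 3 lay at Mir9-2, its widest domain among them (66.6 and 77.3 in WT against 58.2 and 60.3 in dKO), and 2 at Mir9-1. The central Mir9-1 domain stood at 73.2 and 54.4 in WT against 40.6 and 47.3 in dKO, a difference of -19.9 percentile points against a median of -4.16 over all shared regions. Its right flank, whose width overlapped between genotypes, was also lower, at 44.9 and 60.2 in WT against 38.8 and 43.0 in dKO.

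**Figure D5:**
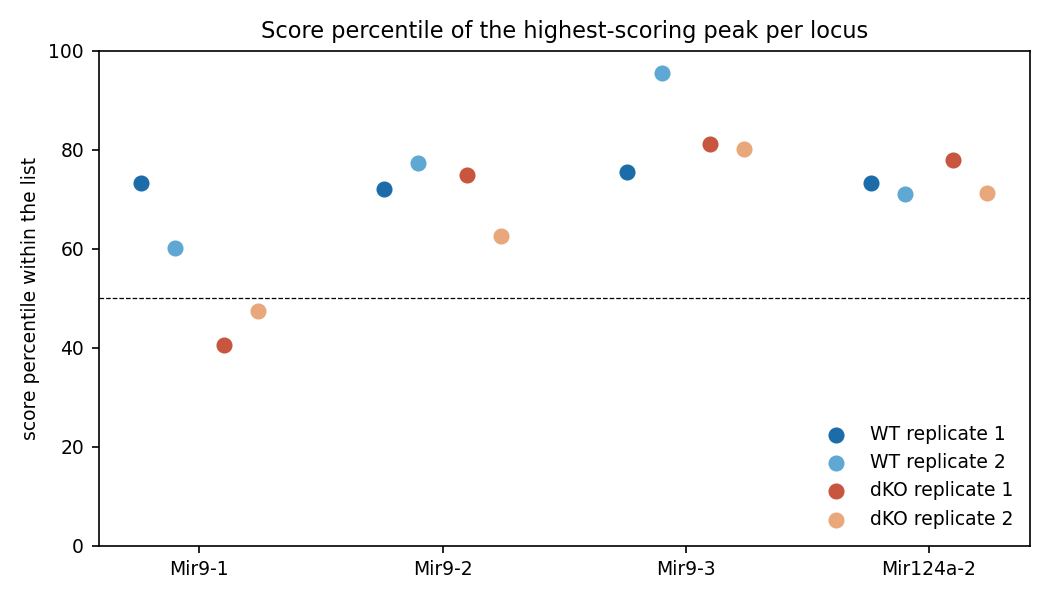
Percentile of the highest-scoring peak of each locus within its own list, by library; the dashed line marks the middle of a list. The dKO libraries lie at 40.6 and 47.3 at Mir9-1 and above 60 at the other loci.

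By score, the widest domains of the 4 loci stood below the other broad domains, which were narrower (median of mean widths 4681.25 bp, against 7988.25 bp). The widest domains of the loci had median score percentiles of 73.2 and 74.2 in WT replicates 1 and 2 and 68.0 and 65.8 in dKO replicates 1 and 2. Those of the 73 other broad domains were 84.8 and 85.3 in WT against 86.7 and 83.7 in dKO. The domain of Mir9-3, first by mean width among all shared regions, stood above these medians in WT replicate 2 only. Score differences between loci are description only, since the score's scale is not known.

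Regions elsewhere came closest in width to the domains of Mir9-1 and Mir124a-2, and least close to that of Mir9-3. Nearest to the central Mir9-1 domain, by Euclidean distance of uncentred log2 widths over the 4 libraries, was a chromosome X domain from 96331002 to 96337127, which covered 5450 and 6126 bp in WT against 4010 and 3934 bp in dKO (distance 0.13). Next came a chromosome 1 domain from 170356425 to 170362343, which covered 5475 and 5426 bp in WT against 3480 and 4430 bp in dKO (0.33). For Mir124a-2 the nearest was on chromosome 7 from 77500316 to 77507996 (0.14), followed by a chromosome 5 domain from 58105402 to 58112320 (0.18). For Mir9-2 and Mir9-3 the nearest were the same, a chromosome 5 domain from 111844877 to 111854569 (0.27 and 0.71) and a chromosome 1 domain from 42741047 to 42749991 (0.656 and 1.198). No other shared region had a mean width as large as that of the Mir9-3 domain.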

How the data were processed

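H3K4me3 was mapped by chromatin immunoprecipitation and sequencing in 2 WT and 2 dKO libraries of E12.5 mouse brain. The submitters' processing notes name MACS2 2.1.1.20160309, bedtools, BWA 0.7.12-r1039, SAMtools, Picard 2.6.0, R 2.14.0 and build mm9; their roles, thresholds and any use of input are not given in the sources used here. The files deposited by the authors are peak lists, 1 per library, with positions and a score on an unnamed scale, used only as a percentile within its own list. No counts are given, so depth is unknown.

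Member peaks were found by overlap with the 4 windows and kept whole, also where they crossed a window border (9 of 88). Peaks of the 4 lists overlapping by at least 1 bp were merged into union regions. For regions with a peak in every library, log2 base pairs were centred on the library median and fitted with limma 3.58.1 (R 4.3.3, variance trend, Benjamini-Hochberg over all 14943 regions). Locus totals were compared by exact two-sided permutation. The labels name no animal for a library; the p-values therefore rest on a spread between libraries that may be technical. Calculations used Python 3.11.15, pandas 2.3.3, numpy 2.4.6 and biopython 1.88, and plots matplotlib 3.10.9. Every region holding a member peak was named, with the 2 most alike regions per locus. Broad domains are shared regions outside the windows with a mean of at least 4000 bp. The members and lists were chosen with earlier results of these data known. Promoter and microRNA sequences are RefSeq's (GRCm38.p6), a build from which no position was carried to mm9.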

Additional observations from a re-analysis of the deposited data

How the results depend on the processing

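The lower base pairs of Mir9-1 in dKO were seen in every alternative run, from -4623.5 to -2902 bp (-4623.5 to -3443.5 bp when 1 library was dropped), and its central domain ran from -0.62 to -0.38 on the log2 scale (limma adjusted p from 0.0662 without dKO replicate 1 to 0.85 without WT replicate 1; -0.55 to -0.40 with a library left out). It passed the threshold in none. The difference in locus base pairs was -1825 to -813 bp at Mir9-2, -967.5 to -118.5 bp at Mir9-3 and -1988 to -957 bp at Mir124a-2 with a library left out. By the longest single peak it was 198.5 bp at Mir9-2 and -3188 bp at Mir9-3, where a domain of like extent was split in dKO. With nearby peaks merged it was -427.5 bp at Mir9-2 and -1032.5 bp at Mir9-3, and with lists limited to the shortest or short peaks dropped it was -234 bp at Mir9-3. The score percentile difference of Mir124a-2 was 2.48 points for the best peak and -2.47 as an average over pieces. The difference in base pairs, divided by the library's median region width, was 1.05 at Mir9-2 and 0.51 at Mir9-3, higher in dKO; the cause was not tested. The log2 width difference of the Mir9-2 domain was -0.11 without centring, -0.042 when peaks under 500 bp were dropped, and between -0.12 and 0.19 over the fits without 1 library. That of Mir9-3 was -0.030 without centring and between 0.06 and 0.16 in those fits. That of Mir124a-2 was 0.053 by span and between -0.034 and 0.0058 in those fits. Over all regions, 1 was called wider, but 0 without centring, with regions in at least 2 libraries and 100 bp added to each width, or with short peaks dropped, and 0 to 3 in the fits without 1 library; 0 were called narrower, but 7 with nearby peaks merged and 0 to 106 in the fits without 1 library (106 without dKO replicate 1, a fit that takes the spread of the single dKO library from the WT pair). Replicate numbers pair no samples in the labels; the deviations of same-numbered libraries had a correlation of -0.06, and the fit with the replicate number as a block left the Mir9-1 domain at -0.48 (adjusted p = 0.217) and the counts at 1 and 0. Windows widened by 5000 bp on each side added peaks only at Mir9-3 (difference -596 bp, against -543 bp). Unknown depth limits all absent peaks.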
